A study of Mus musculus with 6 samples.

Results

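The SR proteins and the heterogeneous nuclear ribonucleoproteins (hnRNPs) are the main families of RNA-binding splicing factors, and their genes were described here at the level of steady-state RNA in mouse embryonic stem cells with and without Pml. Members were taken by gene name: 11 genes whose name is Srsf followed by a number and 20 genes whose name begins with Hnrnp, 31 in all among the 24421 genes of the table. E14 cells of genotype Pml-/- (2 RNA-seq libraries) were compared with wild-type E14 cells (2 RNA-seq libraries). Both groups had been treated with 10 µM paraquat, a redox cycler that produces superoxide, for 15 h, and both grew in serum with CHIR99021, which inhibits GSK3, PD0325901, which inhibits MEK, and leukemia inhibitory factor. No untreated cells were measured by RNA-seq, so the comparison concerns genotype under treatment and not the response to paraquat. The labels state neither whether the Pml-/- line is a single clone nor whether a group's libraries are from separate cultures, so p-values measure the spread between these libraries, which may be technical. The other 2 samples of the series, chromatin labelled by APEX-PML, were not analysed here.

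SR proteins carry RNA-recognition motifs and a domain rich in arginine and serine. They bind exonic enhancers and help U1 and U2 particles to recognise the neighbouring splice sites, and kinases of the SRPK and CLK families set their activity and location. hnRNPs coat nascent transcripts, often bind silencers in exons and introns, and frequently oppose SR proteins at the same exon. Genes of both families hold highly conserved exons with premature stop codons, through which the proteins limit their own expression by way of nonsense-mediated decay. The table counts reads over whole genes, so productive and decay-prone isoforms were not told apart.

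Reads counted over genes, as recovered from the CPM values, came to 38150397 and 43715807 in Pml-/- cells, against 31384794 and 44130093 in wild-type cells. The Pml transcript stood at 78.7 and 89.7 CPM (counts per 1000000 reads) in Pml-/- cells, against 238 and 228 CPM in wild-type cells (limma, adjusted p = 4.43e-10). The genotypes also differed in Y-linked RNA: all 4 tested genes of the Y chromosome were lower in Pml-/- cells, with a median log2 fold change of -4.15. Ddx3y, a Y-linked RNA helicase gene, was at 8.91 and 8.53 CPM in Pml-/- cells, against 160.5 and 164 CPM in wild-type cells (limma, adjusted p = 4.28e-15). Differences that go with Pml and differences between the lines in other respects cannot be told apart in this design. The label of wild-type library 2 names only a DNA library kit, while those of the other 3 name an RNA kit, so whether it was prepared differently is unknown. Summed pluripotency markers were at 7226 and 7265 CPM in Pml-/- cells, against 7113 and 7168 CPM in wild-type cells, with all 10 markers detected. That sum held changes in both directions: 4 of the 10 (40.0%) passed the test described below, against 5.41% of all tested genes. Zfp42 fell by 16.9% and Utf1 fell by 26.8%, while Tfcp2l1 and Tdgf1 rose by 21.9% and 12.8%; the call of Zfp42 held under all 12 alternatives tried, those of Utf1 and Tfcp2l1 under 8 and that of Tdgf1 under 5. Summed markers of other cell types in Pml-/- cells were 5.92 and 6.52 CPM for fibroblasts or feeders (1 of 8 at 0 in every library), 8.89 and 11.5 CPM for primitive endoderm and 5.01 and 4.35 CPM for mesoderm, against 7.58 and 6.89, 9.94 and 8.63, and 5.80 and 5.14 CPM in wild-type cells. Trophoblast markers summed to 83.4 and 85.1 CPM in Pml-/- cells, against 62.5 and 68.2 CPM in wild-type cells, mostly through Tfap2c, and neuroectoderm markers to 240.4 and 243 CPM in Pml-/- cells, against 262 and 274 CPM in wild-type cells. Tfap2c, the 1 of 3 tested trophoblast markers that passed, rose by 35.7% (limma, adjusted p = 0.000845), a call held under all 12 alternatives. Of the 4 tested neuroectoderm markers 2 passed: Nes fell by 27.1% (limma, adjusted p = 0.00199), a call held under all 12 alternatives, and Sox1 fell by 27.8% (adjusted p = 0.0105), held under 11. Among the called markers, Zfp42 and Sox1 lie on chromosome 8, whose tested genes had a median log2 fold change of -0.06. In bulk RNA, fewer cells of a type and less RNA per cell cannot be told apart. The part of these shifts in the values below was not tested.

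Most splicing factor genes of both families differed little between the genotypes, and the few differences that passed the test were decreases. Of the 31 members, all passed the filter of a mean of at least 1 CPM, and 2 fell in Pml-/- cells at an adjusted p under 0.05 (limma on log2(CPM + 1), adjusted over all tested genes): Srsf9 among the 11 SR genes and Hnrnph1 among the 20 hnRNP genes. Over all 12710 tested genes 3.45% fell, 1.95% rose and 5.41% passed in either direction, so 2 of 31 members (6.45%) is close to the background. No member rose by limma, and at an unadjusted p under 0.05 there was 1 higher member, Srsf1, and 8 lower members. The background at an unadjusted p under 0.05 was 8.54% higher, 10.8% lower and 19.3% in either direction, against 29.0% of members in either direction. An edgeR test on the recovered reads called the same count, 1 SR and 1 hnRNP gene, where it called 4.19% of all its genes. The authors' deposited table also held 1 SR and 1 hnRNP gene at a false discovery rate under 0.05. It held 3.8% of all 24421 genes at that threshold, but 5660 of these genes had no read in any library. Among the 12710 tested genes it held 824.

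**Figure D1:**
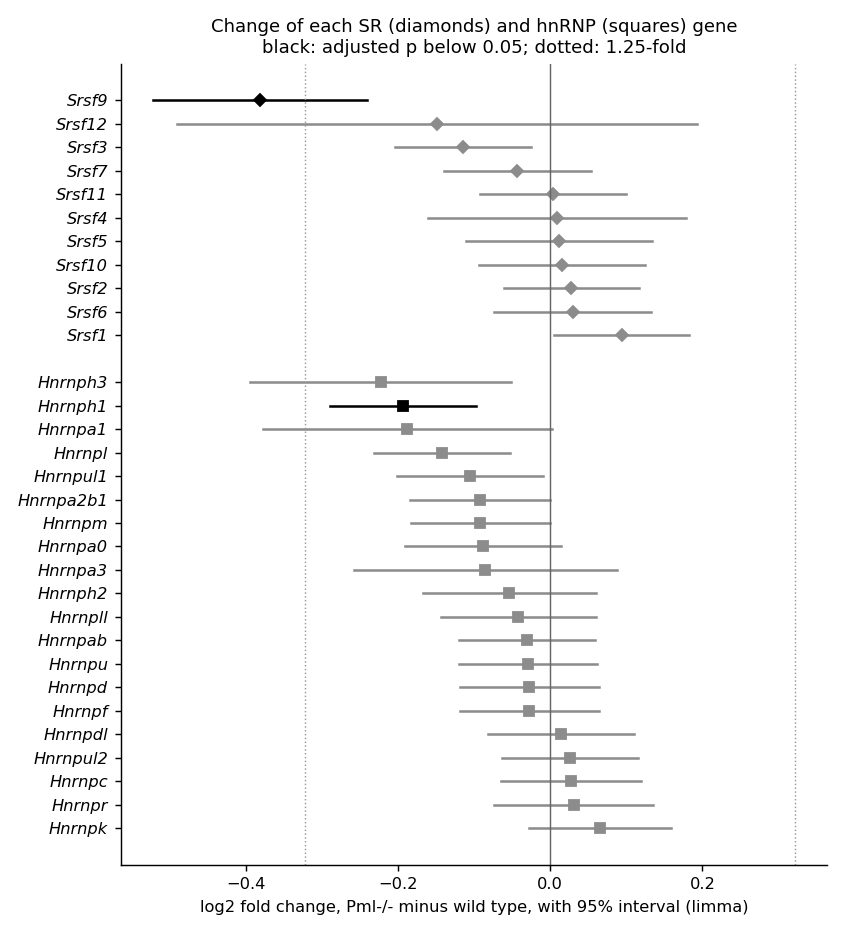
The log2 fold change (Pml-/- minus wild type, on the log2(CPM + 1) scale) of each of the 11 SR genes (diamonds) and 20 hnRNP genes (squares) is plotted with its 95% limma interval, black where the adjusted p is under 0.05. Srsf9 and Hnrnph1 are the black points, and the intervals of 26 of the other 29 members lie inside the dotted lines, which mark 1.25-fold.

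The intervals also bound how large the other differences between these libraries could be. They rest on the spread between 2 libraries a group, which may be technical, so they may be too narrow for the genotypes. For 26 of the 29 members that did not pass, the 95% interval from limma excluded a 1.25-fold difference in either direction: 9 of 10 SR genes and 17 of 19 hnRNP genes. The 3 exceptions were Srsf12, Hnrnpa1 and Hnrnph3, whose intervals reached log2 fold changes of -0.49, -0.38 and -0.39. These had some of the lowest read counts among members, down to 108 reads in a library for Srsf12, against up to 64038 reads for the member with the most (Hnrnpab).

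Srsf9, which encodes the SR protein SRp30c, had the largest change of either family. It stood at 93.6 and 79.6 CPM in Pml-/- cells, against 113 and 112 CPM in wild-type cells. Both Pml-/- libraries were below both wild-type libraries, and Pml-/- library 2 was the lowest. The mean fell by 23.2%, to 86.6 ± 9.90 CPM in Pml-/- cells, against 113 ± 0.86 CPM in wild-type cells (SD, n = 2 each). On the log2 scale it changed by -0.38 (standard error, SE, 0.066; limma, adjusted p = 0.00325). In the authors' deposited table its log2 fold change, there wild type over knockout, was 0.38 with a false discovery rate of 7.15e-05. The call held without each library in turn, with a log2 fold change of -0.27 without Pml-/- library 2 and -0.50 without Pml-/- library 1.

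Srsf9 lies on chromosome 5 from 115327163 to 115333843 (mm10, RefSeq GRCm38.p6), and its last 602 bases overlap Gatc, a gene on the opposite strand that encodes a subunit of a mitochondrial amidotransferase. The sources used here do not state whether counting used strand, so reads of the overlap could belong to either gene. Gatc stood at 17.2 and 20.0 CPM in Pml-/- cells, against 17.3 and 18.4 CPM in wild-type cells (adjusted p = 0.822). Of the 3 nearest tested genes on each side of Srsf9, which were looked up after its value was seen, 0 passed the adjusted threshold by limma and 1, Cox6a1, a subunit of cytochrome c oxidase, had an unadjusted p under 0.05 (256 and 245 CPM in Pml-/- cells, against 271 and 267 CPM in wild-type cells). The log2 fold changes of these 6 neighbours ran from -0.11 for Coq5 to 0.05 for Gatc, and the median over 824 tested genes of chromosome 5 was -0.01.

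Hnrnph1 encodes a protein that binds runs of G and promotes or represses exons by where they lie. It stood at 532 and 516 CPM in Pml-/- cells, against 620.05 and 579 CPM in wild-type cells. The groups did not overlap, although the wild-type libraries lay further apart than the Pml-/- libraries. The mean fell by 12.6%, to 524 ± 11.2 CPM in Pml-/- cells, against 599.6 ± 28.9 CPM in wild-type cells (SD, n = 2 each), a log2 fold change of -0.19 (SE 0.045, limma, adjusted p = 0.0207). The authors' deposited table gave a log2 fold change of 0.19, wild type over knockout, and a false discovery rate of 0.0314. The call ended without wild-type library 1 (adjusted p = 0.265), without Pml-/- library 2 (adjusted p = 0.0594) and with no filter on low values (adjusted p = 0.0952). Hnrnph1 lies on chromosome 11 from 50375257 to 50386528 (mm10), where the median over 1063 tested genes was 0.01. Of its 3 nearest tested neighbours on each side, from Mgat4b to Zfp354c, 0 passed the adjusted threshold by limma and 1, Maml1, a coactivator of Notch signalling, had an unadjusted p under 0.05, in the higher direction.

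The promoters of these genes are printed because Srsf9 and Hnrnph1 were the members that passed the test. Each is the 250 bases before an annotated start, 5′ to 3′ on the gene's strand, from RefSeq GRCm38.p6, with GC boxes (GGGCGG) and CCAAT boxes (CCAAT) on either strand in capitals. Srsf9 has 1 listed start and its window is chr5:115326927-115327176, plus strand. Hnrnph1 has 5 listed starts, and the window printed, chr11:50376740-50376989, plus strand, belongs to the most upstream of these. That start lies 1733 bases inside the annotated gene, which begins at 50375257, and no window is listed at that outer boundary. Which start these cells use was not measured.
Srsf9 promoter: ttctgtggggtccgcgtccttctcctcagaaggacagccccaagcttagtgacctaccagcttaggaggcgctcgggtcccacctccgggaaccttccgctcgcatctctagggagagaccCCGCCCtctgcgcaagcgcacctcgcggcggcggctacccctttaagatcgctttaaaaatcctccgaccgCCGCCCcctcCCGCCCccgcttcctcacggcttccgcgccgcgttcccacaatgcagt
Hnrnph1 promoter: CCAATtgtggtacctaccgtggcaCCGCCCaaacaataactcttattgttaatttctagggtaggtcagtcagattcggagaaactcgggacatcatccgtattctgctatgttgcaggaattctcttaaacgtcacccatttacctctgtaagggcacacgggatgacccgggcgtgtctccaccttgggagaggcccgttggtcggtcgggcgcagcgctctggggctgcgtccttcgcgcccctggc
The Srsf9 window held 25 CpG dinucleotides and 3 GC boxes, and the Hnrnph1 window 17 CpG dinucleotides, 1 GC box and 1 CCAAT box. Promoters of 29 of the 31 members were listed, in 41 windows; Hnrnpll and Hnrnpul2 were not among them. The members' windows held a median of 23 CpG dinucleotides and 68.0% G and C, against a median of 6 and 52.4% over all 32851 windows of the same length. GC boxes were in 33 of the 41 member windows (80.5%, against 32.7% of all windows), CCAAT boxes in 20 (48.8%, against 33.8%) and the ETS core CCGGAAG in 9 (22.0%, against 6.91%). TATAAA was in 3 (7.32%, against 12.4%). All motifs were searched on both strands, none contains another, and windows of a gene with several starts can share sequence. These are matches of letters and not shown to be bound sites.

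The other SR genes showed no common direction. Of the 10 besides Srsf9, 3 log2 fold changes were below 0 and 7 above 0, with a median of 0.01, against -0.0029 over all tested genes, where 51.0% were below 0. Their reads summed to 3358 and 3346 CPM in Pml-/- cells, against 3402 and 3254 CPM in wild-type cells, so the groups overlapped. Within wild type the 11 SR genes differed by a median of -0.06 on the log2(CPM + 1) scale between library 2 and library 1, and within Pml-/- by -0.04. The median of the 11 was -0.08 without wild-type library 2, and 0.04 without wild-type library 1, so its sign depended on which library was kept.

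Srsf3, the smallest SR protein, which also links splicing to mRNA export, was at 469.6 and 462 CPM in Pml-/- cells, against 511 and 498 CPM in wild-type cells. The groups did not overlap, and the log2 fold change of -0.11 did not pass (SE 0.042, limma adjusted p = 0.135). Srsf1, the founding member of the family and a proto-oncoprotein, was at 688 and 706 CPM in Pml-/- cells, against 663 and 643 CPM in wild-type cells. It was the only SR gene with both Pml-/- libraries above both wild-type libraries (1 of 11, 9.09%, against 23.8% of all tested genes). Its log2 fold change of 0.09 did not pass either (limma, adjusted p = 0.235). Srsf2, also called SC35, a marker protein of nuclear speckles, was at 726 and 745 CPM in Pml-/- cells, against 729.5 and 714 CPM in wild-type cells. Its interval ran from -0.06 to 0.12, and its gene overlaps Mfsd11.

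Srsf7, the SR protein with a zinc knuckle, was at 287 and 278 CPM in Pml-/- cells, against 298 and 284 CPM in wild-type cells (adjusted p = 0.665). Srsf4, Srsf5 and Srsf6, a related trio with 2 RNA-recognition motifs each, had log2 fold changes of 0.01, 0.01 and 0.03. For these genes the wild-type libraries differed more from each other than the group means did: Srsf5 was at 283 and 268 CPM in Pml-/- cells, against 292 and 255 CPM in wild-type cells. Srsf6 was at 455 and 425 CPM in Pml-/- cells, against 445 and 417 CPM in wild-type cells. Srsf10, which represses splicing when dephosphorylated, and Srsf11 had log2 fold changes of 0.02 and 0.0037. Srsf12, the lowest by reads, was at 3.25 and 2.47 CPM in Pml-/- cells, against 3.57 and 2.97 CPM in wild-type cells. Its groups overlapped, and at 108 to 131 reads a library a difference of this size was not detectable.

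**Figure D2:**
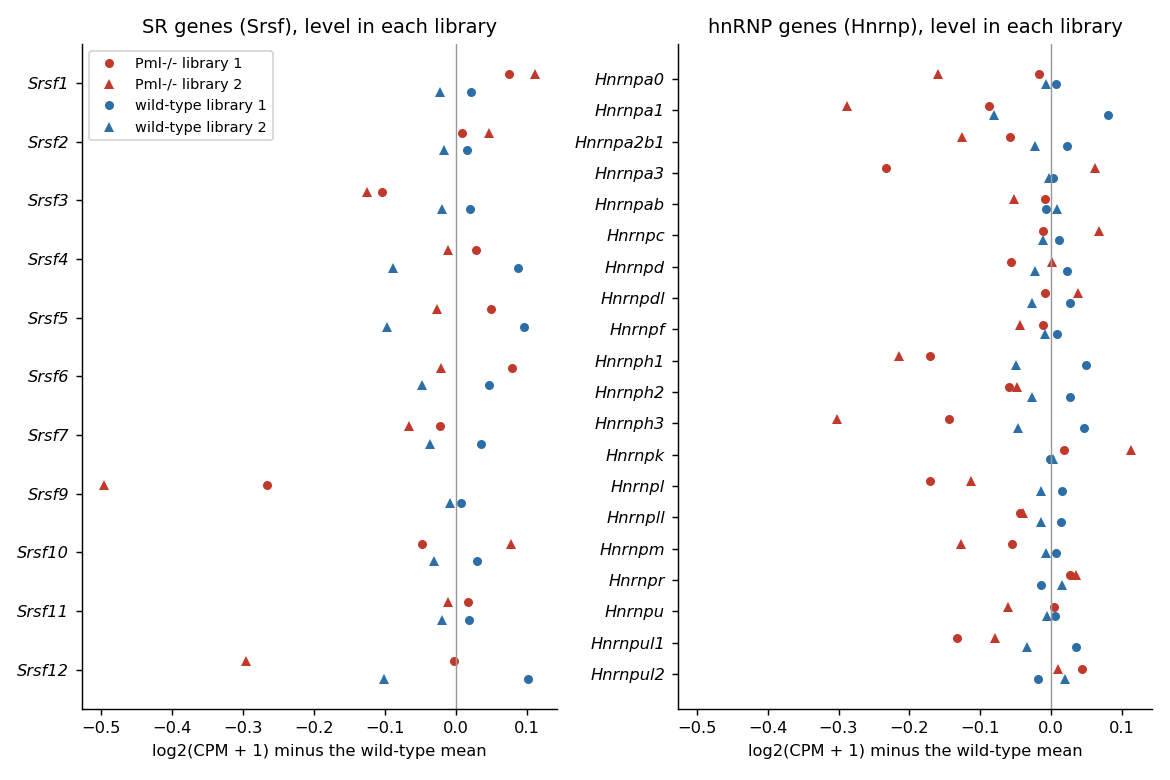
Each point is the log2(CPM + 1) of a gene in 1 library minus its mean in the 2 wild-type libraries, with Pml-/- libraries in red above wild-type libraries in blue, and circles and triangles for libraries 1 and 2. Both Pml-/- points lie left of both wild-type points for 2 of 11 SR genes (18.2%) and 12 of 20 hnRNP genes (60.0%). Over all tested genes this share is 25.5%.

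Among hnRNP genes small negative differences were more frequent than positive ones. Of the 20, 15 log2 fold changes were below 0 (75.0%), with a median of -0.05. Both Pml-/- libraries were below both wild-type libraries for 12 of 20 genes (60.0%), against 25.5% of all tested genes. They were above for 2 of 20 (10.0%), against 23.8% of all tested genes. hnRNP reads summed to 10740.4 and 10627 CPM in Pml-/- cells, against 11122 and 10964 CPM in wild-type cells, a difference of -3.26%. The median stayed below 0 under the 12 alternatives tried, at -0.07 without wild-type library 2 and -0.03 without wild-type library 1. Of the 20 genes, 1 passed the test singly. Members of this family share targets and cross-regulate, so they are not independent of each other, and the direction was read after the values were seen.

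The H and F class, close relatives that bind G runs, was lower in both Pml-/- libraries for all 4 genes. Over all tested genes 25.5% were lower in both, and the 4 differences varied in size. Besides Hnrnph1, Hnrnph3 was at 30.2 and 27.0 CPM in Pml-/- cells, against 34.6 and 32.4 CPM in wild-type cells (log2 fold change -0.22, SE 0.080, adjusted p = 0.13). Its groups did not overlap, but the call was not reached, and part of the gene overlaps Rufy2. Hnrnph2 on the X chromosome was at 85.0 and 85.6 CPM in Pml-/- cells, against 90.2 and 86.9 CPM in wild-type cells. Hnrnpf was at 307 and 300.4 CPM in Pml-/- cells, against 311 and 308 CPM in wild-type cells, which is a difference of -1.88%. These 2 had log2 fold changes of -0.05 and -0.03, and their intervals included 0. The 4 proteins are similar in sequence, and the sources used here do not state how reads matching several genes were counted.

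Hnrnpl, which binds CA repeats, came next closest to the threshold. It was at 747 and 777 CPM in Pml-/- cells, against 849 and 832 CPM in wild-type cells. The groups did not overlap, with a mean difference of -9.37% (log2 fold change -0.14, SE 0.042, limma adjusted p = 0.0658), and it passed without Pml-/- library 2 (adjusted p = 0.029). Its paralog Hnrnpll, a regulator of lymphocyte exons, was at 129 and 129 CPM in Pml-/- cells, against 134 and 132 CPM in wild-type cells (log2 fold change -0.04, adjusted p = 0.70).

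The A/B class, whose members bind UAG-like silencers and AU-rich elements, had 6 of 7 log2 fold changes below 0, against 51.0% of all tested genes. By limma 0 were called, against 5.41% of all tested genes, and by edgeR 0, against 4.19% of its genes. At an unadjusted p under 0.05 by limma there was 1 (14.3%, against 19.3% of all tested genes). That gene was Hnrnpa2b1, also a reader of RNA transport signals, at 1027 and 979.6 CPM in Pml-/- cells, against 1086 and 1052 CPM in wild-type cells (log2 fold change -0.09, adjusted p = 0.258). Hnrnpa1, the classical antagonist of Srsf1 at splice sites, was at 28.2 and 24.4 CPM in Pml-/- cells, against 31.8 and 28.3 CPM in wild-type cells (log2 fold change -0.19, SE 0.089, adjusted p = 0.264). The gene has many processed copies in the genome, so its level as counted is uncertain. Hnrnpa0 was at 793 and 718 CPM in Pml-/- cells, against 806 and 798 CPM in wild-type cells. It lay lower in Pml-/- library 2 than in the other 3 libraries and passed without Pml-/- library 1 (adjusted p = 0.0211), and with all libraries it did not (adjusted p = 0.344). Hnrnpa3 differed more between the Pml-/- libraries, at 45.8 and 56.3 CPM, than between groups, with 54.0 and 53.8 CPM in wild-type cells. Hnrnpab, Hnrnpd and Hnrnpdl, the AUF1-like members, had log2 fold changes of -0.03, -0.03 and 0.01.

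The remaining hnRNP genes varied in direction. Hnrnpk, which binds C-rich RNA and DNA, was at 927 and 990 CPM in Pml-/- cells, against 914 and 917 CPM in wild-type cells, the largest positive value of the family (log2 fold change 0.07, adjusted p = 0.459). Its groups did not overlap, and Pml-/- library 1 was close to wild type. Hnrnpm was at 697 and 663 CPM in Pml-/- cells, against 728 and 721 CPM in wild-type cells (log2 fold change -0.09, adjusted p = 0.255). Hnrnpc, which measures transcript length and shields introns from cryptic exons, and Hnrnpr both had a log2 fold change of 0.03. Of the U class, the nuclear matrix protein gene Hnrnpu was at 1420.1 and 1357 CPM in Pml-/- cells, against 1422 and 1411 CPM in wild-type cells. Hnrnpul1 was at 294 and 305 CPM in Pml-/- cells, against 329.8 and 314 CPM in wild-type cells (log2 fold change -0.11, adjusted p = 0.212), and Hnrnpul2 had a log2 fold change of 0.03. The groups of Hnrnpul1 did not overlap, while those of Hnrnpu and Hnrnpul2 did.

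**Figure D3:**
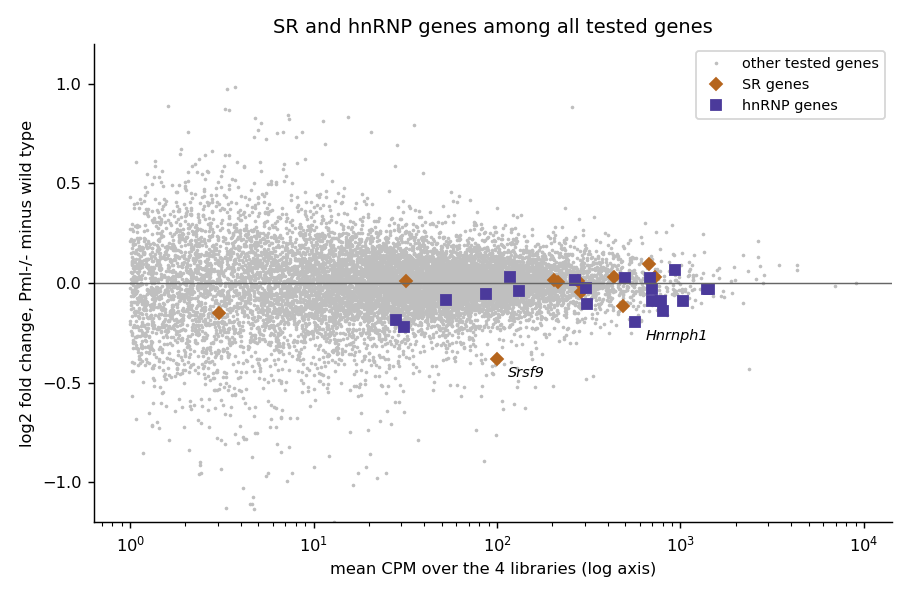
The log2 fold change (Pml-/- minus wild type) of all 12710 tested genes is plotted against their mean CPM over the 4 libraries on a log axis, with 25 genes beyond the vertical range not drawn. SR genes (brown diamonds) and hnRNP genes (violet squares) lie within the cloud of other genes (grey), with Srsf9 the lowest member at -0.38.

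The members lie on 16 chromosomes. None lies on the Y chromosome, whose 4 tested genes are given above, and 0 lie on chromosome 8, whose 681 tested genes had a median log2 fold change of -0.06. Of the 31 members, 10 overlap another protein-coding gene in the annotation, among them Srsf2, Srsf9, Hnrnpu and Hnrnpk, and reads in those stretches may be shared.

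Genes that act with these families were examined as lists. Of 23 tested SR-related proteins and regulators, such as Tra2b and Srrm2, 0 passed by limma and 0 by edgeR, while 4 had an unadjusted p under 0.05 (17.4%, against 19.3% of all tested genes), and the median log2 fold change was 0.01. Of 24 other tested splicing regulators, such as the RBFOX and MBNL genes, 0 passed by limma and 0 by edgeR, 5 had an unadjusted p under 0.05 (20.8%), and the median was -0.03. Of 14 tested kinases, phosphatases and nuclear import receptors, 1 fell and 0 rose (7.14%, against 5.41% of all tested genes), with a median of 0.05. It was Tnpo2, an import receptor of the transportin family, at 162 and 165 CPM in Pml-/- cells, against 184 and 186 CPM in wild-type cells (adjusted p = 0.0307). That call ended without any of the 4 libraries in turn, with edgeR, with median-of-ratios scaling and with no filter (adjusted p from 0.0514 to 0.128).

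Of 26 tested hnRNP-like genes outside the Hnrnp names, 1 fell and 0 rose (3.85%, against 5.41% of all tested genes), with a median of -0.03. At an unadjusted p under 0.05 there were 8 (30.8%, against 19.3%). The gene that fell was Ptbp2, the neural paralog of the polypyrimidine tract-binding protein, at 34.6 and 35.3 CPM in Pml-/- cells, against 45.0 and 44.2 CPM in wild-type cells. The groups were well apart, and the mean fell by 21.6% (log2 fold change -0.34, SE 0.067, limma adjusted p = 0.00709). Nes and Sox1, markers of neuroectoderm, fell as well, as given above. The 4 tested markers of that list had 3 log2 fold changes below 0 and 1 above 0. The part of this in the Ptbp2 value was not tested. Of 41 tested core spliceosome genes, 1 fell and 0 rose (2.44%, against 5.41%), with a median of -0.01. Ddx23, a helicase that acts in the U5 particle, was at 205 and 187 CPM in Pml-/- cells, against 240.5 and 239 CPM in wild-type cells (fell by 18.3%, log2 fold change -0.29, SE 0.050, adjusted p = 0.00299). Calls of both genes held under all 12 alternatives.

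Nonsense-mediated decay removes the isoforms with premature stops by which SR and hnRNP genes limit themselves. Of 14 tested genes of this pathway and of the exon junction complex, 2 fell and 0 rose (14.3%, against 5.41% in either direction over all tested genes), with a list median of -0.0044. Upf1, the helicase at the core of the pathway, was at 246 and 239 CPM in Pml-/- cells, against 294 and 303 CPM in wild-type cells (fell by 18.8%; log2 fold change -0.30 with SE 0.044; adjusted p = 0.000864). Both groups were tight and well apart, and the call of Upf1 held under all 12 alternatives. Upf3a was at 52.0 and 53.0 CPM in Pml-/- cells, against 60.9 and 61.2 CPM in wild-type cells (adjusted p = 0.0495), and its call held under 1 of the 12 alternatives, with the replicate number as a block. Upf1, Upf3a and Tnpo2 lie on chromosome 8, which had the negative median given above, as do the markers Zfp42 and Sox1. The part of this in the values of these genes was not tested. The amount of decay itself was not measured.

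**Figure D4:**
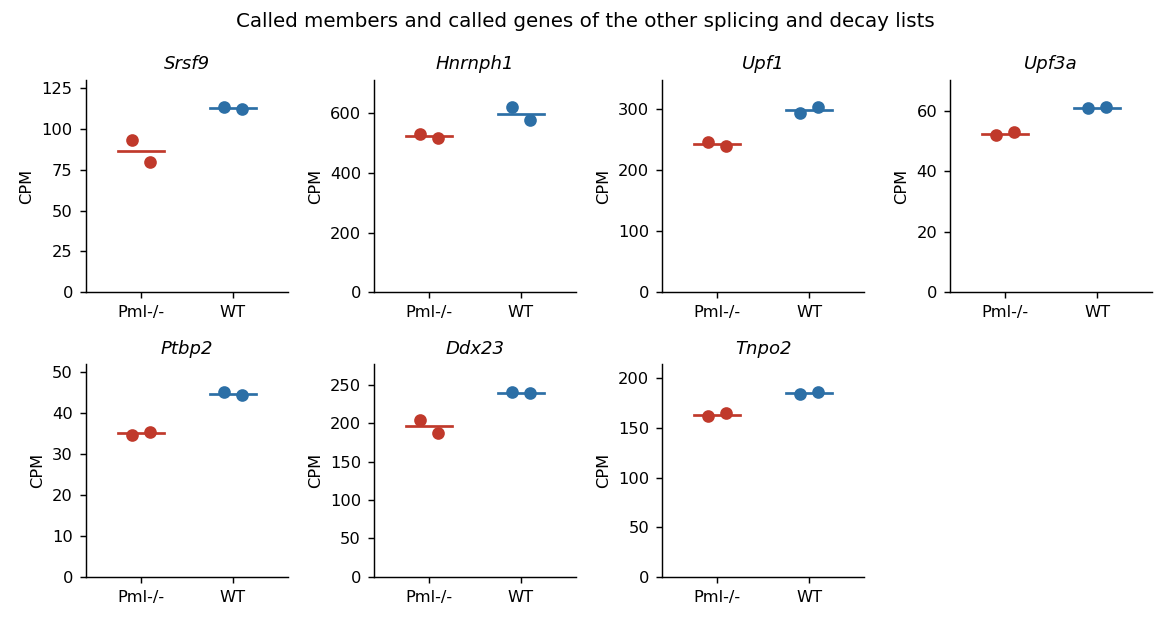
CPM of each library (points) and the group mean (line) are shown for the 2 members and the 5 genes of the other splicing and decay lists that passed the test, with Pml-/- left of wild type and each vertical axis starting at 0. All 7 genes have both Pml-/- libraries below both wild-type libraries, with mean differences from -11.9% for Tnpo2 to -23.2% for Srsf9. The genes were chosen by the test on these same libraries, so their separation adds no support to it.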

How the data were processed

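RNA-seq of 4 libraries was analysed from 1 deposited table. Per the submitters' processing notes the authors used cutadapt, TopHat and edgeR on mm10; the sources used here state no versions, annotation, strand use or handling of reads matching several genes. The deposited values are CPM per library. The authors' log2 fold change (wild type over knockout), p-value and false discovery rate are also deposited. Dividing CPM by the value of 1 read gave whole reads for 100% of values (tolerance 0.001 reads).

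The main test was limma with an intensity trend (version 3.58.1, under R 4.3.3), fitted to log2(CPM + 1) for the genes averaging at least 1 CPM, with Benjamini-Hochberg adjustment and a threshold of 0.05. This scale understates changes of low genes. edgeR 4.0.16 (quasi-likelihood, TMM, filterByExpr) was run on the recovered reads. The script was tested on simulated data. Replicates differed by more than sampling noise (chi-square per gene 7.37 in Pml-/- and 5.68 in wild type over all genes, and 24.4 in Pml-/- and 10.6 in wild type over the members). For a given relative difference this value grows with read count, so it does not compare the reproducibility of members and other genes. Other alternatives were pseudocounts of 0.1 and 5, filters, scalings, a replicate block and leaving out each library. The members and lists were chosen with earlier results of these data known. Named genes were all members, Pml, and up to 4 called genes of each other list. 1 gene of the lists is not reported here. Neighbouring genes, marker genes, Ddx3y and members of overlapping pairs were named outside this rule.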

Additional observations from a re-analysis of the deposited data

How the results depend on the processing

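Of 371 values of single members under the 12 alternatives, 366 kept their side of the threshold; the exceptions were the Hnrnph1, Hnrnpl and Hnrnpa0 calls given above. The call of Srsf9 held under all 12 (adjusted p from 1.39e-05 to 0.0366), and that of Hnrnph1 under 9. The count over all genes, 687, was 298 with no filter and 367 to 869 with 1 library left out. With no filter, 0 hnRNP genes (1 in the main test) and 0 kinase and import genes (1 in the main test) were called by limma. The kinase and import count was also 0 with median-of-ratios scaling and with edgeR. The count of decay and exon junction genes, 2, was 1 under every alternative except the replicate block, where it was 3. Leaving out 1 library gave 0 to 2 hnRNP genes, 0 kinase and import genes, 1 to 4 hnRNP-like genes, 1 to 2 core spliceosome genes and 0 to 1 other splicing regulators, and medians of -0.079 to 0.044 for SR genes and -0.068 to -0.033 for hnRNP genes.

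Replicate numbers are shared by the groups, but nothing says that they mark a common batch; with 2 pairs, deviations of same-numbered libraries correlated at 0.12 over genes. With the replicate block 1198 genes were called over all genes, with 2 hnRNP-like, 2 core spliceosome and 2 other splicing regulator genes. The counts of SR and hnRNP genes stayed at 1 each. Precision is set by having 2 libraries a group for most members; counting error matters for Srsf12, with 108 to 131 reads a library.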
